A study of Mus musculus with 6 samples.

Results

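The mitochondrial genome of the mouse carries 37 genes, and all 37 were measured among the 54556 genes of an islet RNA sequencing table. They were taken as every gene placed on chromosome MT and were divided by annotated biotype into 13 mRNAs, 2 rRNAs and 22 tRNAs. The table holds 6 libraries of RNA from whole islets of C57BL/6 mice, which ate normal chow and were 8 weeks old. In 3 of them, labelled BKO here, the genotype label is β-Mettl3-KO, which is the floxed Mettl3 allele on both chromosomes together with RIP-Cre (Cre recombinase under a rat insulin promoter). The other 3, labelled FF, came from Mettl3 flox/flox mice with no Cre named. Both groups therefore carry the floxed allele, no library carries Cre alone, and an effect of Cre and an effect of the deletion cannot be told apart. The labels name no animals and do not say whether islets were pooled, so a p-value here reflects how far single libraries differ.

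The study asked how Mettl3, the catalytic subunit of the enzyme that writes N6-methyladenosine on RNA, bears on islet β cells. Mettl3 itself was no check of the labels. It had 4.06, 4.20 and 4.15 FPKM in BKO replicates 1 to 3, against 3.42, 2.89 and 3.93 FPKM in FF replicates 1 to 3 (FPKM, fragments per kilobase of gene on the scale the authors deposited). With a log2 difference of 0.25 ± 0.11 (SE, limma adjusted p = 0.12) it did not pass the threshold and was not lower. Whether exons are missing from the transcript is not visible in a sum over the whole gene. Every direction below is that of the libraries labelled BKO against those labelled FF.

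Mitochondrial DNA is a small circle that is transcribed from both strands into long precursors. Nucleases cut these precursors largely at the tRNAs that punctuate the genes, which frees the mRNAs and rRNAs. The mRNAs encode subunits of respiratory complexes I, III and IV and of the ATP synthase, and the rRNAs and tRNAs serve the translation of those mRNAs alone. In β cells, oxidative phosphorylation couples glucose metabolism to insulin secretion. Fragments of mitochondrial DNA also lie in the nuclear chromosomes as pseudogenes, some of them nearly identical to the original.

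Of the 28 mitochondrial genes abundant enough to test, 16 were lower in BKO, none was higher and 12 did not pass the threshold. Those 16 were 12 of 13 mRNAs and 4 of the 13 tested tRNAs, and neither rRNA was among them. Over all 14497 genes tested, 34.0% passed the threshold in either direction and 17.2% were lower. The median log2 difference was -1.81 over the 13 mRNAs, -0.39 over the 2 rRNAs and -0.47 over the 10 tRNAs with a mean of at least 10 reads per library, against -0.00 over all genes tested.

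Sequences are shown first for the tRNAs, so that 4 that were lower in BKO and 3 that did not pass the threshold can be read side by side. They are the genomic form of the RNA (T for U), written 5′ to 3′ on the gene's own strand from GENCODE M21 transcripts (GRCm38), with the anticodon in capitals. The coordinates of all 37 genes in the table were those of GENCODE M21. The 4 tRNAs that were lower in BKO carry proline (mt-Tp, chrMT:15356-15422, minus strand), glutamate (mt-Te, chrMT:14071-14139, minus strand), leucine (mt-Tl2, chrMT:11671-11741, plus strand) and histidine (mt-Th, chrMT:11546-11612, plus strand). The 3 below them carry cysteine (mt-Tc, chrMT:5192-5257), asparagine (mt-Tn, chrMT:5089-5159) and tyrosine (mt-Ty, chrMT:5260-5326), all on the minus strand.
mt-Tp: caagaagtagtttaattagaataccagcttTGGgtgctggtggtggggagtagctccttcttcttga
mt-Te: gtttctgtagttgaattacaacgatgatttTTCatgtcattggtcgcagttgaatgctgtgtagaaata
mt-Tl2: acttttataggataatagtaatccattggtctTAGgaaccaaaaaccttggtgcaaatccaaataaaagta
mt-Th: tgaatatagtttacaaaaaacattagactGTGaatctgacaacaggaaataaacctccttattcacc
mt-Tc: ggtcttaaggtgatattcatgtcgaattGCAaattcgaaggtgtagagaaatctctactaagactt
mt-Tn: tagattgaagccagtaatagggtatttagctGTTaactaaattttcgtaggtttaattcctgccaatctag
mt-Ty: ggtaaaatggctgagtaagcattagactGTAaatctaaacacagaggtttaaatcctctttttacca

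The second set shows how closely some mRNAs match nuclear copies. A stretch of 4653 bases of the mitochondrial genome (chrMT:6390-11042) matches 7 annotated pseudogenes that lie in the same order, on the minus strand, at chr1:24611535-24616197. The first 80 bases of mt-Nd3 (chrMT:9459-9538) and of its copy Gm28438 (chr1:24613040-24613119) differ by 1 base, T3C, shown in capitals and counted from 1 at the first base of mt-Nd3. The first 120 bases of mt-Nd4l (chrMT:9877-9996) are identical to those of Gm10222 (chr1:24612581-24612700), so 1 line stands for both. By contrast mt-Cytb lies outside the stretch. Its nearest annotated copy Gm11410 (chr4:80003990-80004109) differs from mt-Cytb (chrMT:14146-14265) at 7 of the 120 bases shown, again in capitals.
mt-Nd3: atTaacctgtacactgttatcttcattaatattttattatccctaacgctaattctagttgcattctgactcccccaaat
Gm28438: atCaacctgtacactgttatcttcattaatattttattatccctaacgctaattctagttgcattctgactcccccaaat
mt-Nd4l: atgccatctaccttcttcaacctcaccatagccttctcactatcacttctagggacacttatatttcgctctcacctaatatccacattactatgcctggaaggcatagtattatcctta
mt-Cytb: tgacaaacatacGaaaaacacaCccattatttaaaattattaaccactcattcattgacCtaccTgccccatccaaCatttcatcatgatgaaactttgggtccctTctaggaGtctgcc
Gm11410: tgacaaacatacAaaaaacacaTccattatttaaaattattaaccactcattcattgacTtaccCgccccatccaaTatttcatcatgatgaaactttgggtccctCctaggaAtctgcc

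Taken as a whole, the mitochondrial genome held a smaller share of the reads in BKO. It took 3.04%, 5.36% and 4.13% of all reads in BKO replicates 1 to 3, against 8.12%, 12.6% and 9.40% in FF replicates 1 to 3. The highest BKO library lay below the lowest FF library. The mean share was 4.18% ± 1.2 in BKO and 10.04% ± 2.3 in FF (SD, n = 3 each), a log2 ratio of -1.27 (two-sided exact permutation p = 0.10, the smallest that 3 against 3 libraries can give). The insulin genes took 14.4% to 15.1% of reads in BKO and 25.8% to 31.6% in FF, and over the reads outside them the log2 ratio of the mitochondrial share was -1.52. The library totals lay between 16398862 and 18387313 reads, so the 95% Wilson interval of each share was at most 0.0321 percentage points wide, counting error only.

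Reads were next summed by RNA class. Those on the 2 rRNAs came to 0.0365%, 0.0627% and 0.0531% of the library in BKO replicates 1 to 3, against 0.0438%, 0.0668% and 0.0432% in FF replicates 1 to 3. These values overlapped, with BKO replicate 1 lowest and FF replicate 2 highest (log2 ratio -0.01, exact permutation p = 1.0). Reads on the 22 tRNAs came to 0.00857%, 0.0122% and 0.00978% in BKO and 0.0125%, 0.0191% and 0.0143% in FF, a log2 ratio of -0.59 with no overlap (exact permutation p = 0.10). The ratio of rRNA to mRNA reads, which does not depend on how libraries are scaled, was 0.0122, 0.0119 and 0.0130 in BKO, against 0.00543, 0.00533 and 0.00463 in FF. It was 2.41 times as high in BKO with no overlap (exact permutation p = 0.10), and every BKO library stood above every FF library. The ratio of tRNA to mRNA reads was likewise 1.64 times as high in BKO (exact permutation p = 0.10, no overlap). How fully the libraries captured each RNA class was not measured, so these are ratios of reads and not of RNA amounts.

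**Figure D1:**
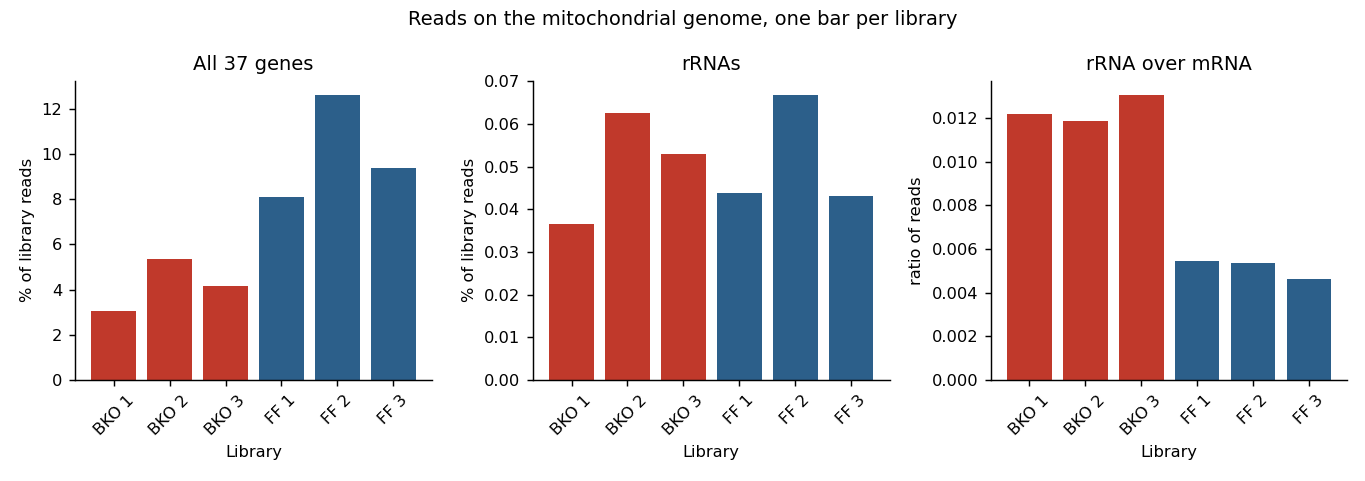
Bars give, for each of the 6 libraries, the percentage of reads on all 37 mitochondrial genes, the percentage on the 2 rRNAs, and the ratio of rRNA to mRNA reads. All BKO bars lie below all FF bars in the left panel, the bars overlap between groups in the middle panel, and all BKO bars lie above all FF bars in the right panel.

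Of complex I (NADH dehydrogenase) 7 subunits are encoded in the mitochondrion, and all 7 mRNAs were lower in BKO. mt-Nd1, which encodes a membrane subunit near the ubiquinone site, had 3438, 4984 and 4185 FPKM in BKO replicates 1 to 3, against 9721, 15004 and 10478 FPKM in FF replicates 1 to 3. Its log2 difference of -1.47 ± 0.24 (SE, limma adjusted p = 0.0048) was the smallest of the 12 mRNAs that passed the threshold. mt-Nd6, the mRNA of the opposite strand, had 1930, 2919 and 2333 FPKM in BKO and 6883, 10953 and 7154 FPKM in FF. No BKO library reached the lowest FF library for either gene. The log2 difference of mt-Nd6 was -1.79 ± 0.24 (adjusted p = 0.0027). mt-Nd2, mt-Nd4 and mt-Nd5, which encode proton-pumping membrane subunits, averaged 2295, 1892 and 2130.4 FPKM in BKO and 8241, 6929 and 6866 FPKM in FF. Their log2 differences were -1.85, -1.88 and -1.71 (SE 0.25 to 0.26).

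The remaining complex I mRNAs had far lower FPKM. mt-Nd3 had 6.62, 8.38 and 6.65 FPKM in BKO replicates 1 to 3, against 20.9, 34.6 and 22.3 FPKM in FF replicates 1 to 3 (log2 difference -1.75 ± 0.20, adjusted p = 0.0014). mt-Nd4l, whose end overlaps the start of mt-Nd4 by 7 bases, had 5.33, 14.6 and 9.25 FPKM in BKO and 28.3, 48.2 and 47.8 FPKM in FF (-2.10 ± 0.37, adjusted p = 0.0068). For both genes every BKO library lay below every FF library. Their FPKM, a level per length, stayed under 50 in every library. Of 50-base windows, 98.0% in mt-Nd3 and 98.8% in mt-Nd4l also occurred in an annotated transcript outside chromosome MT. These FPKM are therefore uncertain as levels of the mitochondrial RNAs.

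mt-Cytb is the only mitochondrially encoded subunit of complex III, and it had the second highest FPKM of the mitochondrial genes. It had 4560.0, 7776 and 5982 FPKM in BKO replicates 1 to 3, against 17411, 26701 and 19732 FPKM in FF replicates 1 to 3. All BKO libraries lay below all FF libraries, and the log2 difference was -1.81 ± 0.27 (adjusted p = 0.0039).

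Complex IV (cytochrome c oxidase) takes its catalytic core from mt-Co1, mt-Co2 and mt-Co3, and all 3 mRNAs were lower in BKO. mt-Co1, the haem-binding subunit, had the highest FPKM of the mitochondrial genes. It had 6648, 12047 and 8934 FPKM in BKO replicates 1 to 3, against 23143, 33844 and 26506 FPKM in FF replicates 1 to 3. It ranked 5, 4 and 4 among all 54556 genes in BKO and 3 in each FF library. The groups did not overlap, and the log2 difference was -1.62 ± 0.29 (adjusted p = 0.0073). mt-Co2, the subunit that receives electrons from cytochrome c, had 50.1, 86.8 and 71.1 FPKM in BKO and 364, 572 and 191 FPKM in FF. Its log2 difference of -2.33 ± 0.40 (adjusted p = 0.0064) was the largest of the 13 mRNAs, and FF replicate 3 was the FF library nearest to BKO. mt-Co3 averaged 32.4 ± 8.88 FPKM in BKO and 123 ± 26.4 FPKM in FF (SD, n = 3 each), a log2 difference of -1.92 ± 0.23 (adjusted p = 0.0017).

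The ATP synthase mRNAs mt-Atp8 and mt-Atp6 share 43 bases of a bicistronic transcript, so their reads could not be fully separated. mt-Atp6, which encodes the subunit of the proton channel, had 20.6, 40.7 and 30.6 FPKM in BKO replicates 1 to 3, against 143, 150 and 83.3 FPKM in FF replicates 1 to 3. Every BKO library was below every FF library (log2 difference -2.02 ± 0.31, adjusted p = 0.0039). mt-Atp8 had 0.941, 2.51 and 6.15 FPKM in BKO and 3.56, 9.50 and 7.26 FPKM in FF. The groups overlapped, since BKO replicate 3 exceeded FF replicate 1, and the log2 difference of -1.15 ± 0.58 did not pass the threshold (adjusted p = 0.17). These values rest on 4, 10 and 26 reads in BKO and 11, 28 and 22 reads in FF. All 13 mRNAs had a negative log2 difference. In 12 of them, the exception being mt-Atp8, each BKO library lay below each FF library, an arrangement that 25.4% of all tested genes showed (50.5% showed groups that did not overlap in either direction).

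**Figure D2:**
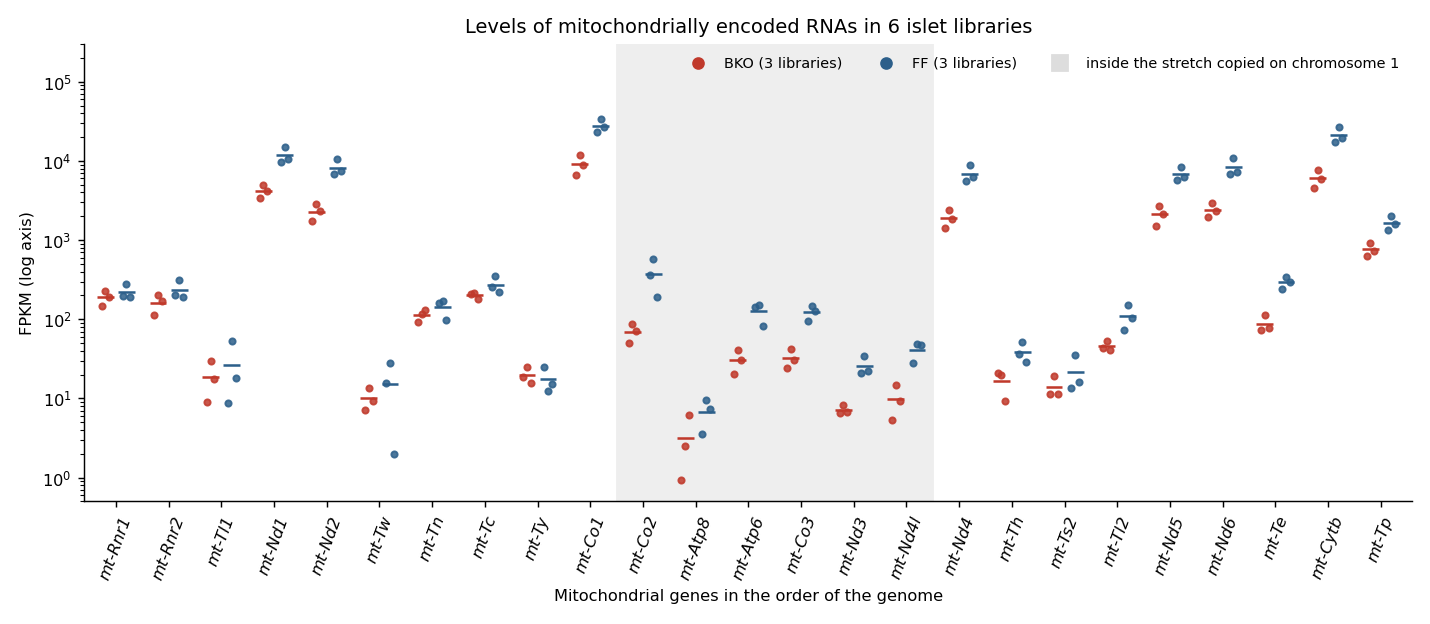
Points give the FPKM of each library on a log axis for the 25 mitochondrial genes with a mean of at least 10 reads, in genome order, with BKO left of FF, and bars mark group means. The shaded genes lie inside the stretch with an annotated copy on chromosome 1 and sit below the other mRNAs in both groups.

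Neither rRNA passed the threshold. mt-Rnr1, the RNA of the small mitoribosomal subunit, had 148, 225 and 194 FPKM in BKO replicates 1 to 3, against 198, 277 and 191 FPKM in FF replicates 1 to 3. mt-Rnr2, the RNA of the large subunit, had 114, 203 and 170 FPKM in BKO and 204, 312 and 194 FPKM in FF. BKO replicate 2 lay inside the FF range for both genes. The log2 differences were -0.23 ± 0.20 for mt-Rnr1 (limma adjusted p = 0.41) and -0.55 ± 0.26 for mt-Rnr2 (adjusted p = 0.15). Unadjusted, 0 of the 2 had p under 0.05, and limma voom on the recovered reads also called 0. A limma fit with replicate number as a block did call mt-Rnr2 (adjusted p = 0.042), though the numbers were not taken as pairs. The 2 rRNA genes precede all the mRNA genes on the plus strand, and only the tRNA gene mt-Tl1 lies between mt-Rnr2 and mt-Nd1.

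The tRNAs varied among themselves. Whether reads at a tRNA gene came from the tRNA itself or from longer RNAs that span it was not tested, so these values are not levels of mature tRNA. Of the 22, 6 had no read in any library, though 0 reads can still arise from an expected count of up to 3 per library. In all, 12 had a mean under 10 reads, with 46 reads between them over the 6 libraries. A further 10 had a mean of at least 10 reads, and 4 of these were lower in BKO. mt-Tp had the highest values, with 632, 928 and 736 FPKM in BKO replicates 1 to 3, against 1336, 2004 and 1597 FPKM in FF replicates 1 to 3 (log2 difference -1.10 ± 0.20, adjusted p = 0.0076). mt-Te had 72.3, 112 and 76.9 FPKM in BKO and 241, 344 and 293 FPKM in FF (-1.76 ± 0.20, adjusted p = 0.0013). Neither gene overlapped between groups, and mt-Te abuts mt-Nd6 on the minus strand. mt-Tl2 averaged 46.0 ± 5.85 FPKM in BKO and 110 ± 39.4 FPKM in FF (-1.19 ± 0.25, adjusted p = 0.014). mt-Th, with only 13 to 50 reads per library, averaged 16.7 ± 6.34 FPKM in BKO and 39.1 ± 11.5 FPKM in FF (-1.25 ± 0.34, adjusted p = 0.030). Without FF replicate 1 (-1.28, adjusted p = 0.072), FF replicate 2 (-1.03, 0.086) or BKO replicate 3 (-0.89, 0.050, above the threshold before rounding) mt-Th was not called, and mt-Tl2 was not called without BKO replicate 3 (-1.12, adjusted p = 0.054).

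The other 6 tRNAs with at least 10 reads did not pass. mt-Tc had 211, 217 and 178 FPKM in BKO replicates 1 to 3, against 256, 347 and 218 FPKM in FF replicates 1 to 3, so the groups did not overlap, yet the log2 difference of -0.42 ± 0.18 had an adjusted p of 0.11. mt-Tn had 93.2, 117 and 132 FPKM in BKO and 159, 173 and 96.8 FPKM in FF, which overlapped (-0.30 ± 0.24). mt-Ty had 18.6, 25.2 and 15.8 FPKM in BKO and 24.7, 12.4 and 15.1 FPKM in FF, with a log2 difference of 0.22 ± 0.27. These 3 genes lie side by side with mt-Ta on the minus strand. mt-Tl1, mt-Tw and mt-Ts2 had 2 to 58 reads per library, and their log2 differences were -0.28 ± 0.69, -0.04 ± 0.84 and -0.52 ± 0.38. The annotated strand did not divide the tRNAs: 2 of 6 tested on the minus strand and 2 of 7 tested on the plus strand were lower. Reads from the opposite strand could not be told apart.

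**Figure D3:**
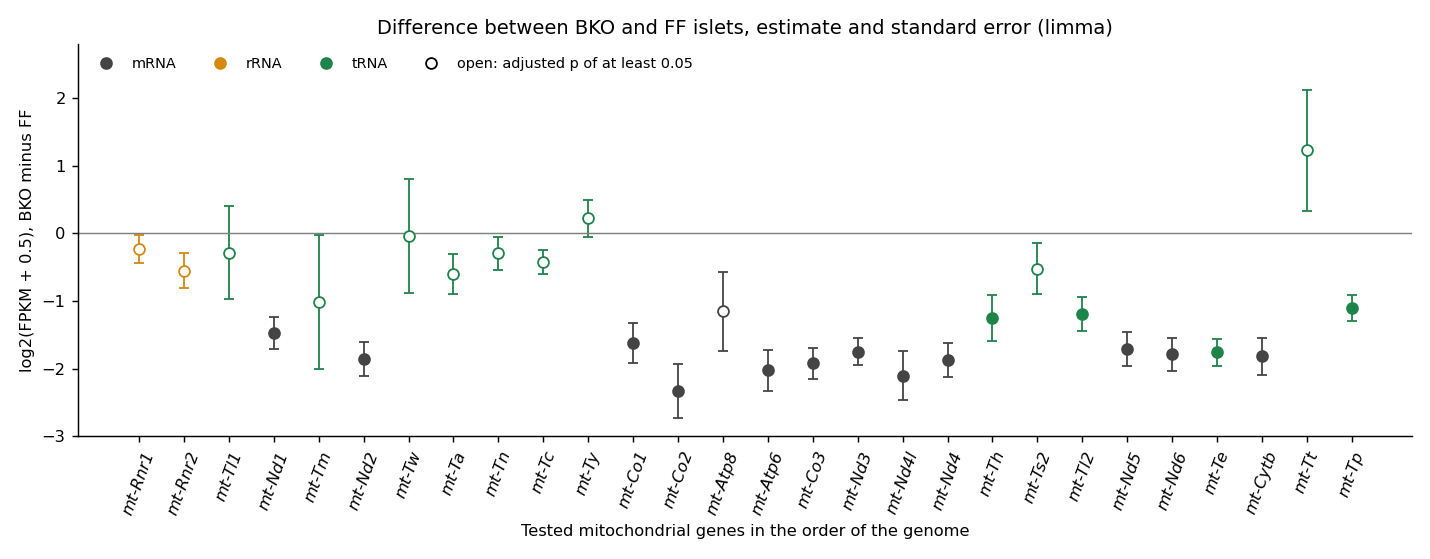
Points give the log2(FPKM + 0.5) difference, BKO minus FF, with its standard error for the 28 tested mitochondrial genes in genome order, and filled points passed the threshold. The mRNAs lie between -2.33 and -1.15, while the rRNAs at the left of the map lie at -0.23 and -0.55.

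The make-up of the mRNA pool was compared through the share of each mRNA. Of summed mRNA FPKM, mt-Nd1 made up 14.996% ± 1.10 in BKO and 12.7% ± 0.308 in FF. mt-Cytb made up 21.5% ± 0.160 in BKO and 23.1% ± 0.224 in FF. mt-Nd2 made up 8.09% ± 0.142 in BKO and 8.95% ± 0.163 in FF, mt-Nd4 6.67% ± 0.0680 in BKO and 7.52% ± 0.163 in FF, and mt-Co3 0.114% ± 0.0028 in BKO and 0.134% ± 0.013 in FF (SD, n = 3 each). For these 5 of the 13 shares compared the groups did not overlap (exact permutation p = 0.10 each, unadjusted, and no share can go lower). A Benjamini-Hochberg adjustment over the 13 shares had been planned and was not made. Shares of 1 sum are not independent, since a rise in 1 of them lowers others. The other 8, mt-Co1 at 32.2% ± 1.23 in BKO and 30.4% ± 1.02 in FF among them, overlapped. Counted in recovered reads in place of FPKM, the groups did not overlap for mt-Co1, with 39.9% ± 1.17 in BKO and 37.8% ± 0.994 in FF (exact permutation p = 0.10). mt-Nd6 set against the summed plus-strand mRNA reads gave 0.0394, 0.0347 and 0.0361 in BKO and 0.0394, 0.0417 and 0.0364 in FF. The 2 groups overlapped in this ratio (log2 ratio -0.09, exact permutation p = 0.30). Strandedness is not given in the sources used here, so reads at mt-Nd6 may come from either strand. The ratio therefore may not separate the strands.

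Libraries kept 1 order across most of the genome. BKO replicate 1 was the lowest BKO library for 13 of 13 mRNAs, BKO replicate 2 the highest for 12 of 13, and FF replicate 2 the highest FF library for 13 of 13. The summed FPKM of 12 enterocyte markers was 114, 606 and 323 in BKO replicates 1 to 3, against 51.7, 45.9 and 48.0 in FF. This sum had the order of the mitochondrial share within BKO and the reverse order within FF. In FF, however, nearly all of it was Vil1 (30.0, 26.8 and 27.6 FPKM in replicates 1 to 3) and Anpep (20.6, 16.1 and 18.9 FPKM). The order within FF is therefore that of these genes and not of the enterocyte markers as a set. The summed FPKM of 12 lymphocyte markers was 1185, 1920.4 and 1480 in BKO and 26.6, 12.1 and 20.9 in FF. That sum too had the mitochondrial order within BKO and the reverse order within FF. Of the tested markers, 9 of 10 for enterocytes and 10 of 10 for lymphocytes were higher in BKO, and Alpi and Cdx2 were listed at 0 in every FF library. Over all genes tested 16.9% were higher and 17.2% lower, which is the background for the marker counts here. The summed FPKM of 13 acinar markers was 822, 528 and 655 in BKO and 1039, 3011 and 1612 in FF, with 11 of 13 lower. The acinar sum had the mitochondrial order within FF and the reverse order within BKO. The sum of 10 endothelial markers was 339, 371 and 329 in BKO and 635, 661 and 649 in FF, with 10 of 10 lower. The 10 islet endocrine markers summed to 148147, 128009 and 134320 FPKM in BKO, against 338385, 271135 and 300487 FPKM in FF, with 4 lower and 1 higher. Most of that sum was Ins1 and Ins2, and the other 8 markers summed to 41954, 29481 and 35009 FPKM in BKO and 38983, 32854 and 34325 FPKM in FF, which overlapped. The part of these cell types in the mitochondrial differences was not tested, and in bulk RNA fewer cells of a type and less RNA per cell cannot be told apart.

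The 6 mRNAs that lie wholly inside the stretch with a chromosome 1 copy were the 6 lowest mRNAs by mean FPKM. mt-Co2, mt-Atp8, mt-Atp6, mt-Co3, mt-Nd3 and mt-Nd4l had a median of 20.2 FPKM in BKO and 82.3 FPKM in FF, while the 5 mRNAs wholly outside had a median of 2394 FPKM in BKO and 8330 FPKM in FF. mt-Co1 and mt-Nd4 cross its edges. Of 50-base windows, 100% in mt-Co2, 99.9% in mt-Co3, 99.5% in mt-Atp6, 98.8% in mt-Nd4l and 98.0% in mt-Nd3 also occurred in an annotated transcript outside chromosome MT. The share was 51.1% in mt-Co1, 62.2% in mt-Nd4, 8.19% in mt-Nd2 and 7.61% in mt-Nd5, and 0% in mt-Nd1, mt-Nd6 and mt-Cytb. mt-Atp8 is the exception, with 0% and the lowest level. It lies between genes whose copies Gm28661 and Gm10925 are annotated, and the chromosome 1 bases between those copies were not read here. The 5 tRNAs inside the stretch (mt-Ts1, mt-Td, mt-Tk, mt-Tg and mt-Tr) had 4 reads in all. How the aligner placed reads that match both places is not given in the sources used here, so the levels of these genes are uncertain.

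**Figure D4:**
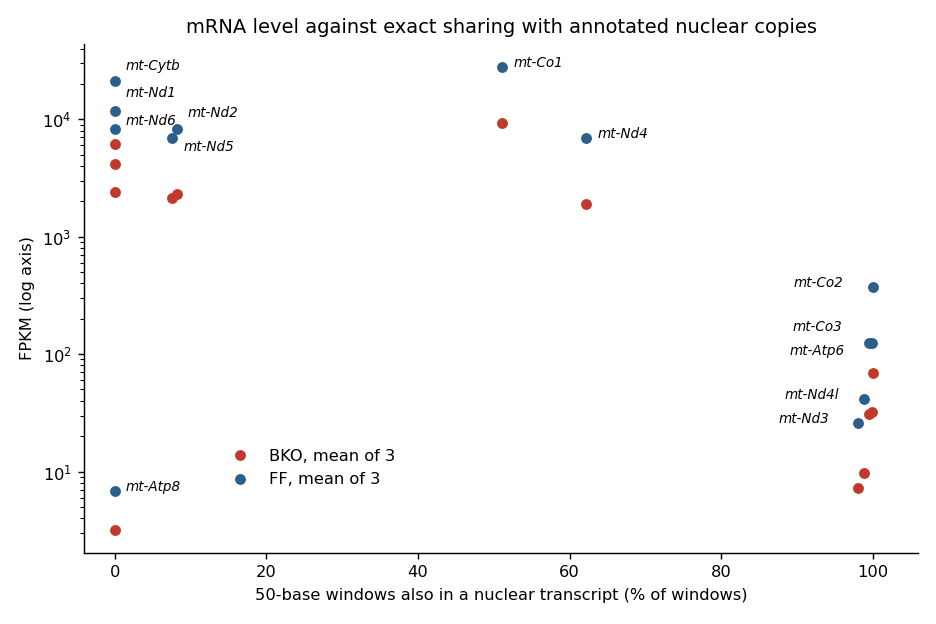
Points give the mean FPKM of each mRNA in BKO and FF on a log axis against the percentage of its 50-base windows found exactly in an annotated transcript outside the mitochondrial genome. The mRNAs at 98.0% or more lie at 376 FPKM or less in both groups, and mt-Atp8 sits lowest at 0%.

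The chromosome 1 copies were lower in BKO like the genes they resemble, and all 7 passed the threshold. Gm28661, identical to 681 bases of mt-Co2, had 411, 624 and 611 reads in BKO replicates 1 to 3, against 1338, 2063 and 1289 reads in FF replicates 1 to 3 (log2 difference -1.95 ± 0.25). Gm28438, the copy of mt-Nd3 with the T3C difference, had 5.36 times as many reads as mt-Nd3 itself over the 6 libraries (log2 difference -1.27 ± 0.21). The copies of mt-Atp6 (Gm10925) and mt-Nd4l (Gm10222) had 1.04 and 1.175 times the reads of their mitochondrial partners. Gm29216, the copy of part of mt-Co1, had 3390 reads in FF replicate 1, against 948 and 584 in the other FF libraries and 206, 285 and 276 in BKO. Adding each copy to its mitochondrial gene left 12 of 13 mRNAs lower, with differences between -2.22 and -1.15. Since the copies were lower themselves, the sum could not turn a difference. It does not show how reads that match both places were placed. All chromosome 1 copies together took only 0.0103% to 0.0169% of reads in BKO and 0.0314% to 0.0479% in FF, so the mitochondrial share with nuclear copies added kept a log2 ratio of -1.27.

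All 13 mRNAs had negative differences on each scale tried, of varying size. The deposited scale centres the genes near 0, and dividing by each library's own reads instead moved the median of all genes to 0.36 on the log2 scale. On that scale the median of the 13 mRNAs was -1.41 with 12 lower, and the 2 rRNAs had -0.14 for mt-Rnr2 and 0.18 for mt-Rnr1, a turn of direction for mt-Rnr1. Quantile normalization gave a median of -1.20 with 12 mRNAs lower, and the smallest difference of an abundant mRNA was then -0.52 for mt-Nd1. Leaving out each library in turn left the same 12 mRNAs called every time. Without a filter on low values 5 of the 12 were called, and mt-Co1, mt-Cytb, mt-Nd1, mt-Nd2, mt-Nd4, mt-Nd5 and mt-Nd6 were not. Without BKO replicates 2 and 3, the libraries with the most enterocyte reads, the median was -2.23. That left BKO replicate 1 alone, the lowest BKO library for 13 of 13 mRNAs. A more negative median therefore followed by construction and says nothing about the part of enterocytes.

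Nuclear genes that act on the mitochondrial genome or serve the organelle formed 6 lists. Of their 120 genes 115 were tested, and 21 were lower and 12 higher in BKO, with a median log2 difference of 0.00. Over all genes tested 34.0% passed, 17.2% lower and 16.9% higher, which is the background for the counts of each list below. Against each library's own reads, where all genes had a median of 0.36, the 115 genes had a median of 0.37 and 66 passed, so the directions given for these lists hold for the deposited scale. Among 20 genes of mitochondrial DNA transcription and the nucleoid 3 were lower: Mterf1b (-0.92 ± 0.13), a paralogue of the transcription terminator Mterf1a with which it may share reads, Ssbp1 (-0.60 ± 0.08), which binds single-stranded mitochondrial DNA, and Mterf3 (-0.32 ± 0.09), a negative regulator of transcription initiation. Mterf3 was not called without BKO replicate 1 or 3 or FF replicate 1 or 3 (adjusted p = 0.095 to 0.12). Polrmt, the mitochondrial RNA polymerase, had 4.90, 5.70 and 4.41 FPKM in BKO replicates 1 to 3, against 4.97, 4.74 and 4.13 FPKM in FF replicates 1 to 3. Tfam, which packages the DNA and activates transcription, had 7.63, 6.29 and 6.76 FPKM in BKO and 6.58, 6.52 and 6.45 FPKM in FF. Both overlapped between groups and neither passed (0.10 ± 0.11, adjusted p = 0.52, and 0.07 ± 0.08, adjusted p = 0.55).

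Of 40 tested genes of mitochondrial RNA processing, modification and stability, 8 were lower and 2 higher. Past the threshold the largest differences were those of Fastk (-0.59 ± 0.09), an RNA-binding protein needed for mt-Nd6 mRNA, Cdk5rap1 (-0.53 ± 0.17), a tRNA-modifying enzyme, and Mettl17 (-0.50 ± 0.12), a mitoribosome assembly factor. Lrpprc, which stabilises mitochondrial mRNAs, had 7.79, 8.28 and 8.03 FPKM in BKO and 8.08, 6.89 and 7.86 FPKM in FF, with overlap (0.08 ± 0.08, adjusted p = 0.50). Of 18 tested tRNA synthetases 7 were lower and 1 higher, led by Gars (-0.82 ± 0.08) for glycine, which also serves the cytosol, Cars2 (-0.67 ± 0.14) for cysteine and Sars2 (-0.46 ± 0.12) for serine. Of 12 translation factors the elongation factor Tufm was higher (0.50 ± 0.09) and none was lower. Single libraries weighed on these counts. The processing count of 10 was 4, 4 and 2 without BKO replicate 1, 2 or 3 and 3, 6 and 7 without FF replicate 1, 2 or 3, and the synthetase count of 8 was 4, 5 and 2 without BKO replicate 1, 2 or 3 and 3, 4 and 2 without FF replicate 1, 2 or 3. Cdk5rap1 was called without FF replicate 2 and lost without any other library (adjusted p = 0.054 to 0.15), Mettl17 was lost without BKO replicate 1 or 3 (0.051 to 0.072), and Sars2 without BKO replicate 1 or 3 or FF replicate 2 or 3 (0.063 to 0.091).

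Regulators of mitochondrial biogenesis and mitochondrial proteins encoded in the nucleus complete the comparison. Of 8 tested regulators 4 were higher and none lower, among them the nuclear receptors Esrrg (0.90 ± 0.17) and Esrra (0.54 ± 0.14) and the Gabp subunit Gabpb1 (0.39 ± 0.09). Of 17 structural and matrix proteins 3 were lower and 4 higher. Cs, the citrate synthase often used as a measure of mitochondrial content, had 12.1, 20.2 and 14.5 FPKM in BKO replicates 1 to 3, against 9.34, 11.01 and 9.51 FPKM in FF replicates 1 to 3 (0.59 ± 0.18, adjusted p = 0.044). No FF library reached the lowest BKO library for Cs, and BKO replicate 2, the library with the most enterocyte reads, was the highest. Whether enterocyte content bears on Cs was not tested. The protease subunit Clpp (-0.46 ± 0.09) and the import motor subunit Timm44 (-0.41 ± 0.07) were lower. Esrra was not called without BKO replicate 3 or any 1 of the FF libraries (adjusted p = 0.051 to 0.070), Gabpb1 without BKO replicate 2 or 3 (0.051 to 0.073), and Cs without any 1 library but BKO replicate 1 (0.054 to 0.12). The regulator count of 4 was 4 without BKO replicate 1, 1 without BKO replicate 3 and 2 without any other 1 library, and the structural count of 7 was 4 without BKO replicate 3 or FF replicate 3.

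**Figure D5:**
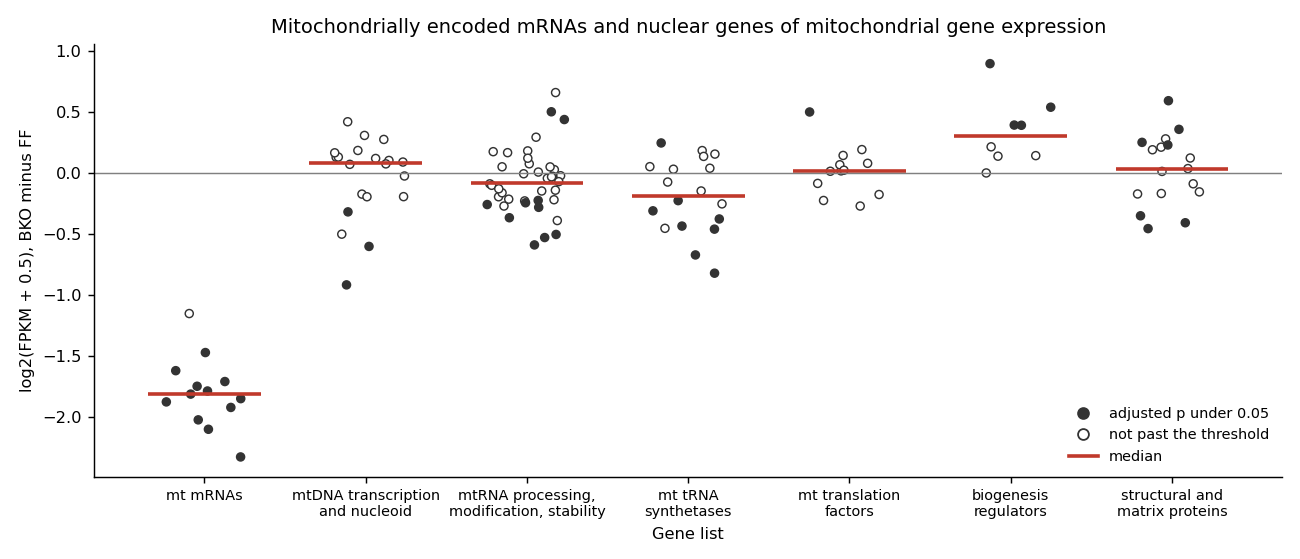
Each point is the log2(FPKM + 0.5) difference, BKO minus FF, of a tested gene, grouped into the 13 mitochondrial mRNAs and 6 lists of nuclear genes, with a bar at each median and filled points past the threshold. The mitochondrial mRNAs have a median of -1.81, and the medians of the nuclear lists lie between -0.19 and 0.30.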

How the data were processed

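Per the labels' protocols, total RNA of islets was sequenced on Illumina libraries, 3 per group. The tools, per the submitters' processing notes, included DESeq2 1.16.1, HISAT2 2.0.5 and featureCounts 1.5.0-p3, with GRCm38.p6. Settings, strandedness and the treatment of reads with several matches were not given in the sources used here, so reads of a gene and of one opposite to it cannot be told apart. The authors deposited FPKM values for 54556 genes, and 0 per-sample columns were left unused. Multiplying FPKM by gene length and dividing by 1 step per library gave whole numbers (100% within 0.1), taken as reads. They summed to 16398862 to 18387313 per library. No library repeated another: chi-square divided by its degrees of freedom was 7.00 to 32.6 within groups.

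The test was limma 3.58.1 (R 4.3.3, variance trend, two-sided) on log2(FPKM + 0.5) for genes averaging at least 1 FPKM, a scale that shrinks changes at low levels. The threshold was 0.05 after Benjamini-Hochberg adjustment. Read shares and ratios had exact permutation tests. The test was also run on simulated counts, and its outcome there is not given here. Named were all mRNAs and rRNAs, tRNAs with a mean of at least 10 reads, the 3 largest differences past the threshold in each nuclear list, and Polrmt, Tfam, Lrpprc and Mterf3. Members and lists were chosen with earlier results of these data known. Nuclear copies had been planned to come from gene descriptions, which are empty for nearly all genes. They were instead GENCODE M21 transcripts outside chromosome MT matching a mitochondrial gene over at least 100 bases at 90% identity or more (BLAST 2.17.0), 17 genes with 16 in the table. Of these 8 were tested and 8 were lower, 7 of them on chromosome 1. Alternatives covered the pseudocount, filters, scaling, voom, the variance trend, a replicate block and left-out libraries, and the sum of each gene and its chromosome 1 copy, chosen after seeing the data.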

Additional observations from a re-analysis of the deposited data

How the results depend on the processing

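The 12 mRNAs called in BKO stayed 12 in every alternative but 3: without a filter on low values 5 were called (the log2 differences are the same by construction and the standard error of mt-Co1, for example, was 3.57), with a filter at a mean of 10 reads 10 (mt-Co1 and mt-Cytb lost), and without BKO replicates 2 and 3, which leaves BKO 1 library assumed to vary like FF, 2. The tRNA count of 4 became 2 without a filter and 1 without those libraries, and ranged from 3 to 4 without 1 library (without BKO replicate 3 the 3 were mt-Tp, mt-Te and mt-Ta, the last with a mean under 10 reads). With 1 library left out the rRNA count stayed at 0 to 0, the mRNA count at 12 to 12 and the copies at 8 to 8 (3 without BKO replicates 2 and 3), while the log2 ratio of the mitochondrial share ranged from -1.49 to -1.07, of rRNA to mRNA from 1.20 to 1.31 and of mt-Nd6 to other mRNAs from -0.15 to -0.05. Nuclear lists moved more. Transcription (3) gave 14 against own reads and 0 without BKO replicates 2 and 3, and 2 to 3 without 1 library. RNA processing (10) gave 5 without a filter, 18 against own reads, 6 with voom, 6 without a variance trend, 0 without both BKO libraries and 2 to 7 without 1. Synthetases (8) gave 5 at a filter of 5 FPKM, 2 without a filter, 2 without both and 2 to 5 without 1. Translation factors (1) gave 9 against own reads, 0 without both and 1 to 2 without 1. Regulators (4) gave 1 at 5 FPKM, 1 without a filter, 8 against own reads, 2 by quantile normalization, 0 without both and 1 to 4 without 1. Structural proteins (7) gave 11 against own reads, 1 without both and 4 to 7 without 1. Turns of direction concerned genes not called under those alternatives: against own reads mt-Rnr1 0.18, mt-Tn 0.11, mt-Tl1 0.11, mt-Tw 0.34 and Mterf3 0.066, mt-Tl1 without BKO replicate 1 (0.15) or FF replicate 2 (0.40, the range without 1 library being -0.87 to 0.40), and mt-Tw at a pseudocount of 0.1 (0.0059) or without BKO replicate 1 (0.17), FF replicate 1 (0.28) or FF replicate 2 (0.68, the range without 1 library being -1.07 to 0.68). The labels give both groups replicate numbers 1 to 3, but same-numbered libraries deviated together with correlations of only 0.081, 0.075 and 0.042, each library highest with its own number, so the numbers were not taken as pairs. A replicate block called 4659 genes in place of 4935, 12 mRNAs, 6 tRNAs with at least 10 reads, 1 rRNA (mt-Rnr2), 6 RNA processing genes and 2 regulators. Where no value shows it, the cause was not tested. Depth limits mt-Atp8 and the tRNAs under 10 reads.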
